A study of Mus musculus with 6 samples.

Results

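The genes described here build and cross-link the elastic fiber. They are elastin (Eln), fibrillin-1 (Fbn1), the fibulins Fbln1, Fbln2 and Fbln5, the lysyl oxidases Lox, Loxl1, Loxl2 and Loxl3, and Emilin1. All 10 were found by gene symbol among the 49568 symbols of the count table, and all 10 were among the 19199 genes that passed the filter on low counts. They were read in the bulk RNA-sequencing of 6 lungs, 1 library per mouse, from female C57BL/6 mice at 4 months of age. The 3 TNF+ mice, labelled TNF-Tg, carry a transgene with the human TNF gene, and the 3 TNF- mice, labelled WT, are littermates without it. The sources used here name no other allele and no treatment in these animals. The line is a model of erosive arthritis with lung vascular disease and is not limited to a lung cell type, and reads of the human gene were not analysed here.

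An elastic fiber has a core of cross-linked elastin that recoils after stretch, laid on a scaffold of fibrillin microfibrils. Fibulins and emilins sit between core and scaffold and guide the soluble elastin onto it. Lysyl oxidases are copper-dependent enzymes that oxidise lysine side chains of elastin and collagen, after which the chains join into a lasting network. In the lung, these fibers run through the alveolar walls, the airways, the pleura and the walls of the pulmonary arteries. Fibroblasts, myofibroblasts and smooth muscle cells make most of the components.

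Total counts per lung lay between 25396923 and 32529408. The lung label was borne out by the epithelial markers, since the summed level of 6 of them (surfactant and club cell genes among them) was 19146 to 43232 CPM (counts scaled to the library's total after TMM normalization) in every lung. A pair of libraries stood apart. In the TNF- lung of replicate 1, 5 squamous epithelium genes summed to 3438 CPM, against 0.437 to 2.73 CPM in the other 5 lungs, and 5 skeletal muscle genes to 1458 CPM, against 13.5 to 32.2 CPM. In the TNF+ lung of replicate 1, the single gene Gm42418 held 5.22% of the counts, against 0.0774% to 0.274% elsewhere. The counts of calls among the fiber genes, elastases and inhibitors, and the fold changes of the 10 genes, were therefore also computed without both libraries.

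Between TNF+ and TNF- lungs, 4 of the 10 genes were lower and 1 was higher in TNF+ lungs. Fbln1 fell 9.41-fold, Fbln5 2.89-fold, Loxl1 2.16-fold and Eln 1.53-fold, while Loxl3 rose 1.31-fold. Fbn1, Fbln2, Lox, Loxl2 and Emilin1 did not pass the test. A gene was called when its p from the quasi-likelihood test of edgeR, adjusted after Benjamini and Hochberg over all 19199 genes, was under 0.05. Of all genes tested, 47.4% were called, 23.4% as lower and 24% as higher in TNF+ lungs. The 5 of 10 called are near that background, and the 4 of 10 lower stand beside 23.4%. The groups did not overlap for 5 of the 10 genes, beside 58.7% of all genes tested. These were the same 5 genes, 4 lower (28.2% of all genes) and 1 higher (30.5%). The median log2 fold change of the 10 genes was -0.49, beside 0.03 for all genes tested. Without both libraries that stood apart, 4 were called, all of them lower, and the genes were Eln, Fbln1, Fbln5 and Loxl1. That fit called 6064 genes in all, 3375 lower and 2689 higher. With DESeq2, 6 were lower and 0 were higher, among 4737 lower and 4422 higher of all genes. In whole-lung RNA, fewer cells of a type and less RNA per cell cannot be told apart.

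**Figure D1:**
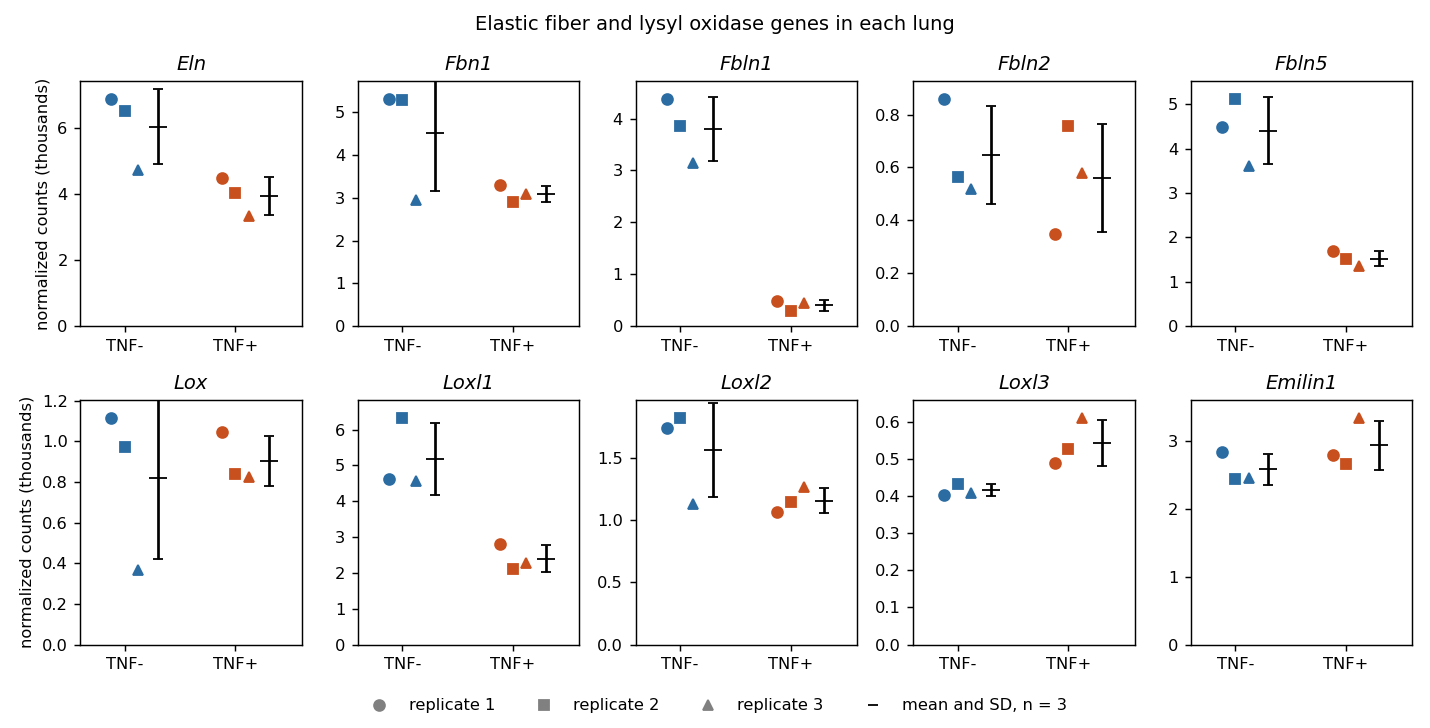
Normalized counts, in units of 1000, of the 10 elastic fiber and lysyl oxidase genes in each of 3 TNF- and 3 TNF+ lungs, with the mean and SD beside the points. Fbln1, Fbln5, Loxl1 and Eln lie lower in every TNF+ lung than in any TNF- lung, Loxl3 lies higher in every TNF+ lung, and the points of the other 5 genes overlap between the groups.

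The regions upstream of Fbln1 and Fbln5 are shown because these are the pair of genes with the largest falls. RefSeq start sites were listed for 5 of the 10 genes, and Fbln1 and Fbln5 each had one whose 250 bases upstream hold no annotated exon of the gene. The Fbln1 window is chr15:85205699-85205948 on the plus strand and the Fbln5 window chr12:101819120-101819369 on the minus strand, from RefSeq on GRCm38.p6, written 5′ to 3′ with motif matches in capitals.
Fbln1: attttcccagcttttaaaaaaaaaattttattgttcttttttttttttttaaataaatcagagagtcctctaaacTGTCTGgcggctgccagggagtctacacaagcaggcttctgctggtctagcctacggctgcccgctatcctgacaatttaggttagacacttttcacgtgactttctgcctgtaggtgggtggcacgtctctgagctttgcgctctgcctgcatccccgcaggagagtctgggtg
Fbln5: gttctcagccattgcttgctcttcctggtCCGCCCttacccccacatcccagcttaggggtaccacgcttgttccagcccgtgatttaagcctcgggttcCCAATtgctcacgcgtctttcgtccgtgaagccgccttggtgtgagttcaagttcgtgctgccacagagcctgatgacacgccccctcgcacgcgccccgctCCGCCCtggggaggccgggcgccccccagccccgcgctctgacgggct
On both strands, 4 motifs were searched, and no matches overlapped. The Fbln1 window held 1 match to CAGACA, the element that Smad proteins of the TGF-β pathway bind (read here as TGTCTG), which 17.1% of 32851 upstream windows of all genes hold. It had no GC box (GGGCGG, in 32.7% of windows), no TATA box (TATAAA, in 12.4%) and no CCAAT box (CCAAT, in 33.8%). The Fbln5 window held 2 GC boxes, read as CCGCCC, and 1 CCAAT box. GC content was 46.4% in the Fbln1 window and 65.2% in the Fbln5 window. These contents depend on the start site. The window of the second listed Fbln1 start, which takes in 59 exon bases, held 1 GC box beside the CAGACA match at 62.4% GC. That of the second Fbln5 start held 1 CAGACA match and no GC or CCAAT box at 49.6% GC. A match describes letters only and shows no binding.

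Elastin, the core protein, is encoded by Eln (ENSMUSG00000029675.12, chromosome 5 of mm10, 134702593 to 134747323, minus strand). Its values are given as normalized counts, for which each count was divided by the library's TMM-scaled total and brought back to the average total. For Eln they were 4461, 4010 and 3316 in the TNF+ lungs of replicates 1, 2 and 3, and 6859, 6493 and 4728 in the TNF- lungs. Every TNF+ lung lay below every TNF- lung, with a narrow gap between the highest TNF+ and the lowest TNF- lung. The means were 3929 ± 577 (SD, n = 3) and 6027 ± 1139 (SD, n = 3). This was a log2 fold change of -0.62 with a standard error (SE) of 0.17 and an edgeR adjusted p = 0.0172. Without the TNF- lung of replicate 2 the adjusted p was 0.0603. Over the 15 alternative fits it ranged from 0.000268 to 0.0603, and 14 called the gene.

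Fibrillin-1, the main protein of the microfibril scaffold, is encoded by Fbn1 (ENSMUSG00000027204.13, chromosome 2, 125300594 to 125507993, minus strand). Its normalized counts were 3295, 2915 and 3088 in TNF+ lungs and 5311, 5290 and 2950 in TNF- lungs. The TNF- lungs of replicates 1 and 2 were high and the third lay among the TNF+ lungs, so the groups overlapped. The log2 fold change was -0.54 (SE 0.21, edgeR adjusted p = 0.0643). Without the TNF- lung of replicate 3, Fbn1 was called lower (log2 fold change -0.78, adjusted p = 0.000764), and over the 15 alternatives 4 called it, with adjusted p-values from 0.000764 to 0.196. Exons of the uncharacterised gene Gm9913 cover 20.1% of the exon bases of Fbn1 on the opposite strand, and Gm9913 had 1 to 10 counts per lung. The part of Gm9913 reads in the Fbn1 counts was not tested.

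The ratio of core to scaffold transcripts overlapped between the groups. Eln over Fbn1, each as CPM per kilobase of exon, was 2.03, 2.06 and 1.61 in TNF+ lungs and 1.93, 1.84 and 2.40 in TNF- lungs. The difference of means of -0.16 was smaller than the SD of either group (exact two-sided permutation test, p = 0.6, where 0.1 is the smallest p that 3 lungs against 3 allow).

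Fibulins are secreted glycoproteins that bind elastin, fibrillin and basement membrane proteins. Fbln1 (ENSMUSG00000006369.14, chromosome 15, 85205949 to 85286535, plus strand), found in basement membranes and along elastic fibers, had the largest fall of the 10 genes. Its normalized counts were 485, 282 and 444 in TNF+ lungs and 4376, 3867 and 3148 in TNF- lungs. The groups were far apart, with the highest TNF+ lung well under the lowest TNF- lung. The means were 404 ± 107 (SD, n = 3) and 3797 ± 617 (SD, n = 3), a log2 fold change of -3.23 (SE 0.22, edgeR adjusted p = 2.2e-05). Of all genes tested, 0.688% had a lower log2 fold change. It stayed between -3.42 and -3.03 when each lung was left out in turn, and all 15 alternatives called it, with adjusted p-values up to 0.000431.

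Fbln5 (ENSMUSG00000021186.9, chromosome 12, 101746565 to 101819055, minus strand) encodes a fibulin that binds elastin and Loxl1 and is needed to assemble elastic fibers in mice. Its normalized counts were 1684, 1523 and 1363 in TNF+ lungs and 4489, 5120 and 3614 in TNF- lungs, with no overlap. The means were 1523 ± 160 (SD, n = 3) and 4408 ± 756 (SD, n = 3), a log2 fold change of -1.53 (SE 0.15, edgeR adjusted p = 0.000109). All 15 alternatives called it lower, with log2 fold changes between -1.66 and -1.42 and adjusted p-values up to 0.00111.

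Fbln2 (ENSMUSG00000064080.12, chromosome 6, 91212455 to 91272540, plus strand), a fibulin of vessel walls and basement membranes, had 348, 756 and 578 normalized counts in TNF+ lungs and 858, 564 and 518 in TNF- lungs. The highest and the lowest lung of the 6 were both of replicate 1, one from each genotype, and the groups overlapped. The log2 fold change of -0.20 (SE 0.29, edgeR adjusted p = 0.592) changed sign without either of these lungs, and was 0.26 (adjusted p = 0.325) without both. Over the 15 alternatives its adjusted p ranged from 0.238 to 0.982.

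Among Fbln1, Fbln2 and Fbln5, as CPM per kilobase of exon, Fbln1 held 27.1%, 16.0% and 26.1% in TNF+ lungs and 56.1%, 51.6% and 54.4% in TNF- lungs. Fbln5 held 59.5%, 54.6% and 50.6% in TNF+ lungs and 36.4%, 43.2% and 39.5% in TNF- lungs. Fbln2 held 13.3%, 29.4% and 23.3% against 7.54%, 5.17% and 6.14%. None of these 3 shares overlapped between the groups, and each had the smallest p the design allows (exact two-sided permutation test, p = 0.1, adjusted p = 0.129 over the 9 shares and ratios compared). The 3 shares are parts of the same sum in a lung, so a fall in the largest raises the others. Their tests are therefore not independent. By its own level Fbln5 fell (log2 fold change -1.53), and Fbln2 did not pass the test (-0.20). Fbln1 was the most abundant of the 3 per length in every TNF- lung and Fbln5 in every TNF+ lung.

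Lysyl oxidases carry out the cross-linking step. Loxl1 (ENSMUSG00000032334.10, chromosome 9, 58287738 to 58313186, minus strand), the family member needed to maintain elastic fibers in adult mice, had 2818, 2107 and 2265 normalized counts in TNF+ lungs and 4632, 6330 and 4570 in TNF- lungs. No TNF+ lung reached the lowest TNF- lung. The means were 2396 ± 373 (SD, n = 3) and 5177 ± 999 (SD, n = 3), a log2 fold change of -1.11 (SE 0.17, edgeR adjusted p = 0.00101). All 15 alternatives called Loxl1 lower, with adjusted p-values up to 0.00684.

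Lox, on chromosome 18 (ENSMUSG00000024529.14), encodes the founding lysyl oxidase, which acts on elastin and fibrillar collagen. It had 1044, 839 and 824 normalized counts in TNF+ lungs and 1117, 975 and 368 in TNF- lungs. The TNF- lung of replicate 3 was low while the other two lay near the TNF+ lungs. The log2 fold change was 0.14 (SE 0.35, edgeR adjusted p = 0.767), and it was -0.22 (adjusted p = 0.222) without that lung. No alternative called Lox (0 of 15), with adjusted p-values between 0.222 and 0.982.

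Loxl2 (ENSMUSG00000034205.16, chromosome 14, 69609068 to 69695834, plus strand), which cross-links collagen IV of basement membranes among other targets, had 1065, 1145 and 1265 normalized counts in TNF+ lungs and 1743, 1826 and 1131 in TNF- lungs. Again the third TNF- lung lay among the TNF+ lungs. Loxl2 was not called (log2 fold change -0.43, SE 0.18, edgeR adjusted p = 0.0746), and without that lung it was called lower (-0.63, edgeR adjusted p = 0.00295). Over the 15 alternatives the adjusted p ranged from 0.00295 to 0.303. The Loxl2 counts are uncertain, since 42.8% of the 100-base windows of its transcripts also occur in Gm21451 or Gm45509. Gm21451 had 0.492 to 0.561 counts for each Loxl2 count in all 6 lungs, and its own log2 fold change was -0.47 (SE 0.18, edgeR adjusted p = 0.0646). Exons of Gm27177 on the opposite strand cover 5.57% of the exon bases of Loxl2, and Gm27177, with 265 to 458 counts per lung, was called higher (log2 fold change 0.62, edgeR adjusted p = 0.0131). None of the windows of the other 9 genes occur, in the same orientation, in an annotated transcript of another gene. The rest of the genome was not searched.

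Loxl3 (ENSMUSG00000000693.10, chromosome 6, 83034173 to 83052562, plus strand), a paralog that also acts on collagen and elastin, was the gene called higher. It had 489, 525 and 611 normalized counts in TNF+ lungs and 403, 433 and 409 in TNF- lungs. The groups did not overlap, but the lowest TNF+ lung was close to the TNF- lungs. The log2 fold change was 0.39 (SE 0.12, edgeR adjusted p = 0.0325). The call was lost in every fit that left a lung out (0 of 6 called, edgeR adjusted p up to 0.133), while the log2 fold change in these fits lay between 0.27 and 0.42. It was also lost with the replicate block (log2 fold change 0.38, adjusted p = 0.0743) and with DESeq2 (0.36, adjusted p = 0.0538). Of the 15 alternatives 4 called it, with adjusted p-values from 0.0298 to 0.133. On the opposite strand, exons of Htra2 cover 11.6% of the exon bases of Loxl3. Htra2, a mitochondrial protease, had 924, 1237 and 1455 counts in TNF+ lungs and 628, 729 and 843 in TNF- lungs (log2 fold change 0.92, edgeR adjusted p = 0.000373). The strand setting of the counting is not given in the sources used here, and the part of Htra2 reads in the Loxl3 counts was not tested.

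Summed over Lox, Loxl1, Loxl2, Loxl3 and the remaining paralog Loxl4, the family level was 46.7, 38.5 and 41.6 CPM per kilobase in TNF+ lungs and 69.0, 85.5 and 59.2 in TNF- lungs. This sum, and each share of it, takes in the uncertain Loxl2 counts. Loxl1 held 60.6%, 54.9% and 54.6% of this sum in TNF+ lungs and 67.4%, 74.3% and 77.5% in TNF- lungs. Its share was lower in 3 of 3 TNF+ lungs. The share of Lox was 14.8% ± 0.935 in TNF+ lungs against 7.80% ± 3.46 in TNF- lungs (SD over 3 lungs each), and that of Loxl3 was 9.29% ± 1.57 against 4.27% ± 0.665. Loxl4 held 2.37% ± 0.288 against 1.45% ± 0.307, while its own level did not pass the test (log2 fold change -0.01, edgeR adjusted p = 0.968). The shares of Lox, Loxl1, Loxl3 and Loxl4 did not overlap between the groups (exact two-sided permutation test, p = 0.1 for each, adjusted p = 0.129). They are parts of the same sum in a lung, so a fall in the Loxl1 share raises the others. Their tests are therefore not independent. By its own level Lox did not pass the test (log2 fold change 0.14, edgeR adjusted p = 0.767). The share of Loxl2 overlapped, at 16.9% ± 2.56 against 13.4% ± 1.91 (exact two-sided permutation test, p = 0.2, adjusted p = 0.225).

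**Figure D2:**
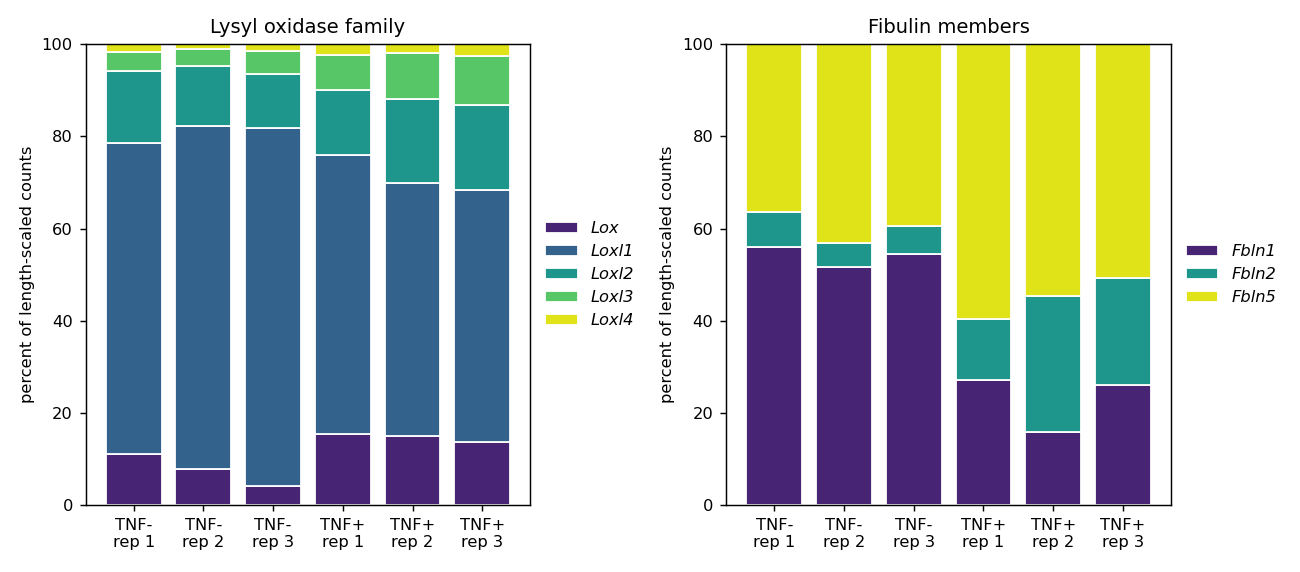
Percent of the length-scaled counts (CPM per kilobase of exon) held by each lysyl oxidase and by each fibulin in the 3 TNF- and 3 TNF+ lungs, 1 bar per lung summing to 100%. The Loxl1 band is at least 67.4% in TNF- lungs and at most 60.6% in TNF+ lungs, and the Fbln1 band is at least 51.6% in TNF- lungs and at most 27.1% in TNF+ lungs.

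Emilin1 (ENSMUSG00000029163.9, chromosome 5, 30913402 to 30921277, plus strand) encodes a glycoprotein at the border of elastin and microfibrils. It had 2793, 2668 and 3345 normalized counts in TNF+ lungs and 2844, 2438 and 2461 in TNF- lungs. There was overlap between the genotypes, and no call was made (log2 fold change 0.19, SE 0.12, edgeR adjusted p = 0.228). The adjusted p ranged from 0.164 to 0.633 over the 15 alternatives.

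Ordered by level per length in TNF- lungs, Loxl1 stood first at 52.0 ± 10.02 CPM per kilobase (SD, n = 3), with no overlap with the next gene. Fbln1 (28.8 ± 4.67), Eln (24.6 ± 4.66), Fbln5 (21.1 ± 3.62) and Emilin1 (17.3 ± 1.53) followed, each overlapping its neighbour in range, and Emilin1 was clear of Fbn1. Fbn1 (12.3 ± 3.70), Loxl2 (9.59 ± 2.32), Lox (5.68 ± 2.76), Fbln2 (3.36 ± 0.958) and Loxl3 (2.98 ± 0.115) made up the lower ranks, and neighbours among these also overlapped. In TNF+ lungs the order of levels was Loxl1 (24.0 ± 3.75), Emilin1 (19.7 ± 2.41), Eln (16.1 ± 2.36), Fbn1 (8.46 ± 0.519), Fbln5 (7.29 ± 0.768), Loxl2 (7.09 ± 0.615), Lox (6.25 ± 0.853), Loxl3 (3.89 ± 0.449), Fbln1 (3.06 ± 0.812) and Fbln2 (2.91 ± 1.06). Fbln1 went from rank 2 to rank 9 and Emilin1 from rank 5 to rank 2. Within TNF+ lungs, gaps without overlap lay only between Eln and Fbn1 and between Lox and Loxl3. The place of Loxl2 rests on its uncertain counts.

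The spread among TNF- lungs was shared by many of the genes. In 8 of the 10, the TNF- lung of replicate 3 was the lowest of its group, and it was the highest in 0 of 10. Among all genes tested, that lung was the lowest of the 3 for 37.8% and the highest for 38.9%. The exceptions were Loxl3 and Emilin1, the pair with the smallest relative SD among TNF- lungs (3.84% and 8.83% of the mean), while Lox had the widest (48.5%). The shared place of these genes in one animal is a description, since genes of one lung are not independent.

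The genes whose log2 CPM profile over the 6 lungs, centred on the TNF- mean, lay closest to that of Eln were Thrb, a thyroid hormone receptor (root-mean-square distance 0.0785 log2 units), Zdhhc3 (0.0884), Lgalsl (0.0890), Exoc6b (0.0893) and mt-Cytb, mitochondrial cytochrome b (0.0917), out of 13311 genes whose mean log2 CPM was 2 or more. Among the other 9 of the 10 genes described here, Fbn1 had the smallest distance to Eln, at rank 234 (0.184 log2 units), and then Loxl2 at rank 978 (0.252). Fbln1 was at rank 12865 (1.89 log2 units). With profiles centred on the TNF- mean, the distance takes in the difference in fold change (log2 fold change -3.23 for Fbln1 and -0.62 for Eln). A far rank therefore does not show that 2 genes differ in their order among lungs of the same genotype.

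The rest of the elastic fiber pathway was covered by 25 other genes, chosen by role. Of these, 24 were tested, 16 were lower and 2 were higher in TNF+ lungs, and 6 did not pass, beside 23.4% lower and 24% higher among all genes tested. Without both libraries that stood apart, 14 were lower and 2 were higher, among 3375 lower and 2689 higher of all genes in that fit. The median log2 fold change was -0.91, beside 0.03 over all genes tested. A call with a log2 fold change of -1 or less was made for 9 of the 24, beside 12.2% of all genes tested, and a call with 1 or more for 2, beside 10.3%. The range of the summed level was 2596 to 2803 CPM in TNF+ lungs and 3045 to 3921 CPM in TNF- lungs.

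The latent TGF-β binding proteins, large glycoproteins that attach to fibrillin microfibrils, moved in opposite directions. Ltbp4, which holds latent TGF-β and binds Fbln5, had 17109, 18648 and 18449 normalized counts in TNF+ lungs and 44111, 34024 and 30570 in TNF- lungs (log2 fold change -1.004, SE 0.16, edgeR adjusted p = 0.00143). Ltbp1 and Ltbp3 also fell (log2 fold changes -0.48 and -0.93). Ltbp2, the family member that does not bind latent TGF-β, had 24303, 31087 and 26390 normalized counts in TNF+ lungs and 6586, 5872 and 5083 in TNF- lungs. It rose 4.66-fold (log2 fold change 2.22, SE 0.15, edgeR adjusted p = 2.34e-05). All TNF+ lungs lay far above all TNF- lungs for Ltbp2 and below them for Ltbp4, and the summed level of the 4 genes overlapped between the groups (1596 to 1871 CPM in TNF+ and 1576 to 2093 CPM in TNF- lungs).

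Emilin2, a paralog of Emilin1, was the other gene of the list that rose (log2 fold change 1.26, SE 0.12, edgeR adjusted p = 9.77e-05), with 1532, 1271 and 1500 normalized counts in TNF+ and 636, 534 and 630 in TNF- lungs. Further fibulins fell. Efemp1, which encodes fibulin-3, had 1141, 865 and 944 normalized counts in TNF+ lungs against 3149, 3375 and 2767 in TNF- lungs (log2 fold change -1.66, edgeR adjusted p = 4.2e-05). Fbln7 fell by 1.61 on the log2 scale at a low level (7 to 13 counts in TNF+ and 26 to 51 in TNF- lungs). Efemp2, which encodes fibulin-4, the partner of Lox in elastin assembly, fell less (log2 fold change -0.63, edgeR adjusted p = 0.0046). The fibulin relative Hmcn1 fell by 1.19 on the log2 scale.

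Transcripts of other genes of the list also differed. Mfap2, a small glycoprotein that binds fibrillin, had 741, 751 and 744 normalized counts in TNF+ lungs and 1780, 1729 and 1597 in TNF- lungs (log2 fold change -1.19, SE 0.09, edgeR adjusted p = 3.04e-05). Both groups were tight and lay far apart. Thsd4 (log2 fold change -1.32) and Adamtsl4 (-1.15), which encode ADAMTS-like proteins that bind fibrillin-1, also fell, while the related Adamtsl2 did not pass the test (-0.44, edgeR adjusted p = 0.0671). Adamts17, a metalloprotease of the same superfamily, had 10, 5 and 10 counts in TNF+ lungs and 254, 254 and 99 in TNF- lungs (log2 fold change -4.38, SE 0.51, edgeR adjusted p = 0.000288). Tll1, a tolloid-like protease that can process lysyl oxidase precursors, fell by 1.86 on the log2 scale, while Bmp1, the related protease, did not pass the test (log2 fold change -0.09, edgeR adjusted p = 0.522).

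**Figure D3:**
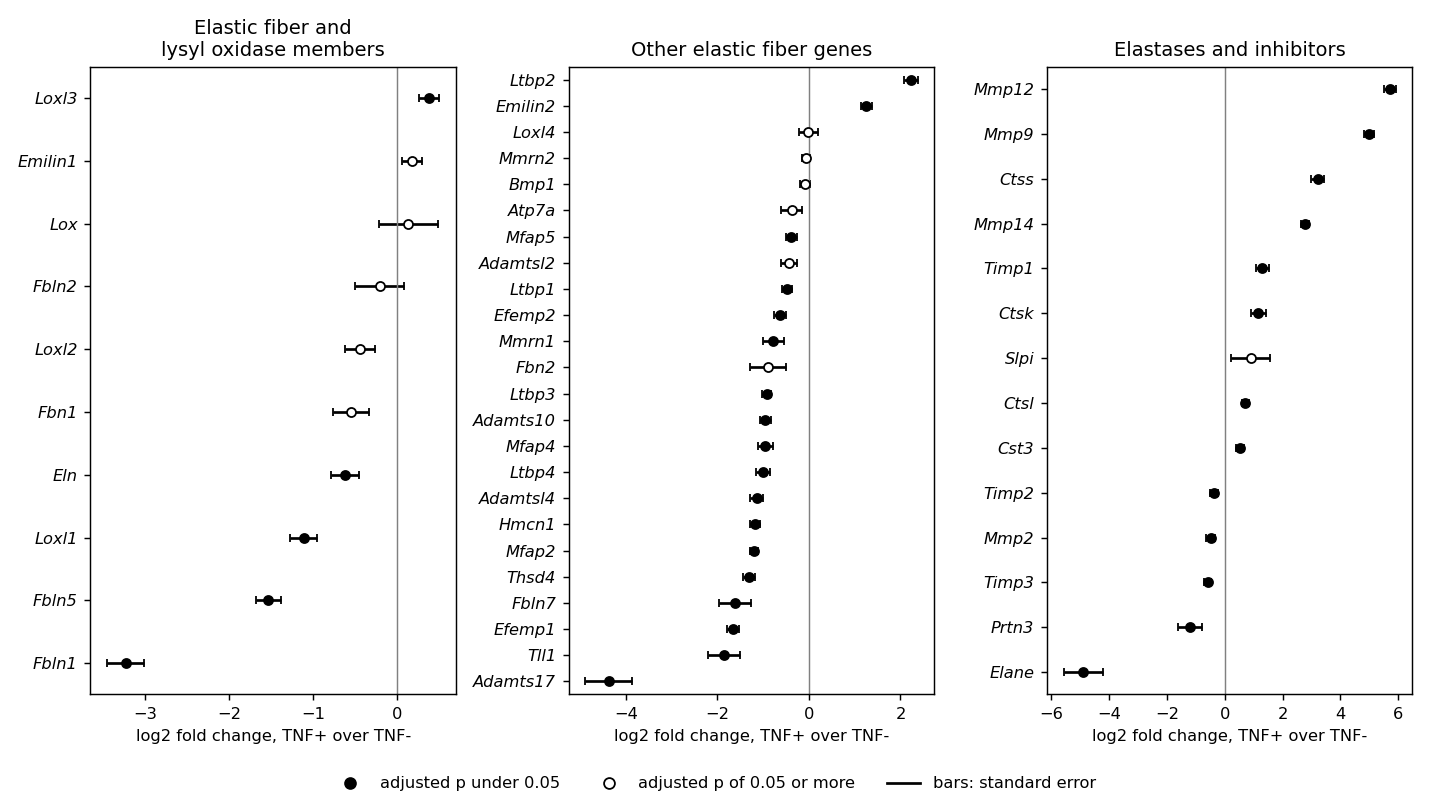
Log2 fold change of TNF+ over TNF- lungs with its standard error for the 10 members, 24 other elastic fiber genes and 14 elastases and inhibitors, where filled points passed an adjusted p of 0.05 and each panel has its own x axis. Fbln1 is lowest among the members at -3.23, Ltbp2 is highest among the other elastic fiber genes at 2.22, and Mmp12 is highest among the elastases at 5.71.

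Enzymes that cleave elastin or microfibrils were tested beside the fiber genes. Of 10 such enzymes listed, 9 were tested, with 6 higher and 3 lower in TNF+ lungs, where 24% of all genes tested were higher and 23.4% lower. Together with 5 inhibitors, 8 genes were higher and 5 lower of 14 tested. Without both libraries that stood apart, 8 were higher and 2 lower, among 2689 higher and 3375 lower of all genes in that fit. Mmp12, the macrophage elastase, had 6619, 8526 and 5930 normalized counts in TNF+ lungs and 122, 116 and 164 in TNF- lungs, a 52.2-fold rise (log2 fold change 5.71, SE 0.21, edgeR adjusted p = 2.72e-06). Mmp9, a gelatinase that also cleaves elastin, rose 31.8-fold, and Ctss, the elastolytic cathepsin of phagocytes, rose 9.29-fold. Mmp14, a membrane-bound metalloprotease, rose 6.89-fold and Ctsk, a collagen- and elastin-cleaving cathepsin, 2.24-fold. Elane, the neutrophil elastase, went the other way, with 1, 0 and 1 counts in TNF+ lungs and 33, 16 and 32 in TNF- lungs. Of the 5 inhibitors, 2 were higher and 2 lower, and Timp1, which blocks metalloproteases, rose by 1.30 on the log2 scale (SE 0.21, edgeR adjusted p = 0.00153).

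Markers of the cell types that make elastic fibers were called lower in part or in whole, beside 23.4% lower and 24% higher among all genes tested. Of 7 alveolar fibroblast markers, 7 were lower in TNF+ lungs, with a summed level of 673 to 772 CPM in TNF+ and 2277 to 2788 CPM in TNF- lungs and a median log2 fold change of -2.13. Of 7 smooth muscle markers 6 were lower (566 to 593 CPM against 1031 to 1242 CPM), and of 6 adventitial fibroblast markers 3 were lower (165 to 178 CPM against 316 to 376 CPM). Of 5 markers of alveolar duct myofibroblasts, 3 were lower and 1 was higher (33.9 to 34.2 CPM against 42.0 to 52.0 CPM). Pericyte markers overlapped in sum (275 to 339 CPM against 319 to 419 CPM, 2 of 5 lower), and 3 of 5 mesothelial markers were lower (90.1 to 162 CPM against 168 to 299 CPM).

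The same shares of all genes (23.4% lower, 24% higher) stand beside the counts for other cell types. Markers of endothelium were lower for 5 of 5 genes (1163 to 1387 CPM against 2294 to 2850 CPM), those of epithelium for 4 of 6, and those of cardiac muscle, which ensheathes the pulmonary veins in mice, for 5 of 5 (233 to 285 CPM against 807 to 1118 CPM). Leukocyte markers were higher for 4 of 5 genes (7104 to 8067 CPM against 2735 to 2796 CPM). Fat cell markers were low in the TNF+ lungs of replicates 1 and 2 (4.14 and 3.49 CPM) and at 30.5 CPM in the third, against 29.2 to 59.1 CPM in TNF- lungs. The 5 cartilage markers were low in all lungs but did not overlap in sum (1.83 to 2.16 CPM against 0.729 to 1.11 CPM). Of these, Comp was the gene that passed the filter, and it was called higher in TNF+ lungs (32, 42 and 58 counts against 21, 13 and 19, log2 fold change 1.503, edgeR adjusted p = 0.00373), while the other 4 had 0 to 10 counts per lung. The part of these marker levels in the elastic fiber results was not tested.

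**Figure D4:**
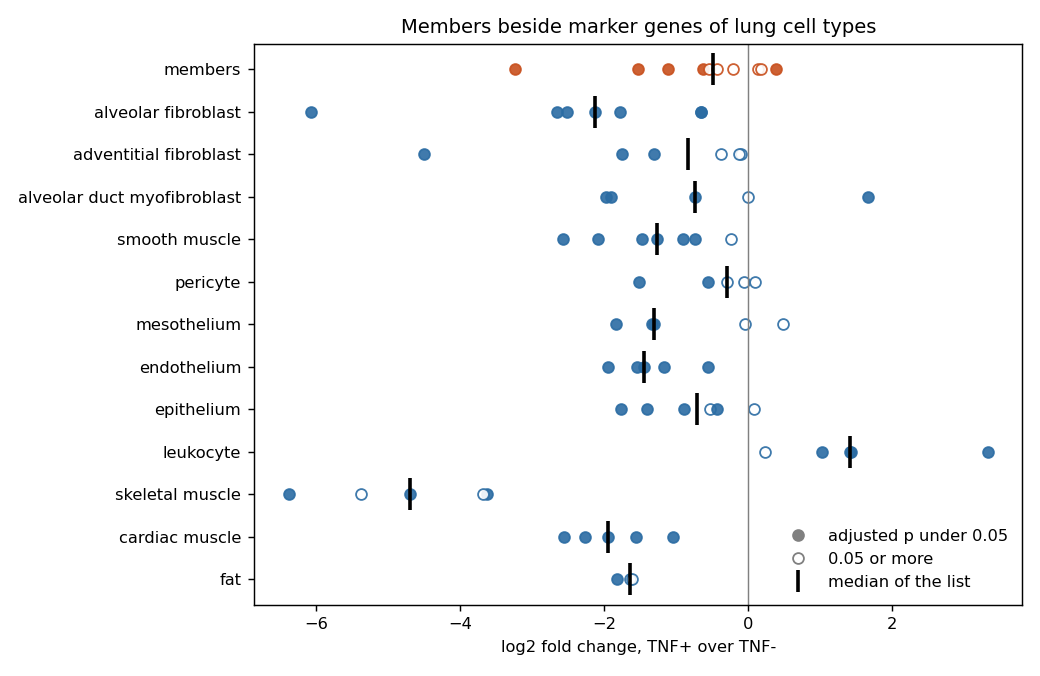
Log2 fold change of TNF+ over TNF- lungs for each of the 10 members and for the marker genes of lung cell types, 1 row per list, with filled points at an adjusted p under 0.05 and a bar at the median. The median of the members is -0.49, that of the alveolar fibroblast markers -2.13, that of the smooth muscle markers -1.26 and that of the leukocyte markers 1.42.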

How the data were processed

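Libraries were stranded, poly(A)-selected and read single-end, 1 per lung of 3 TNF+ and 3 TNF- mice. The authors deposited raw counts per gene symbol, made with Trimmomatic (version 0.36 in the submitters' processing notes, another version in the paper), STAR (version 2.5.2b, mm10) and featureCounts. The annotation and strand setting of the counting are not given in the sources used here. The study's own test was DESeq2.

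Here edgeR (version 4.0.16, in R version 4.3.3) was run on the counts after filterByExpr and TMM scaling, with its quasi-likelihood F test, Benjamini-Hochberg adjustment and a single genotype term. SE is the absolute log2 fold change over the square root of F. The log2 CPM had a prior count of 2. Levels per length used merged exons of GENCODE M21 (GRCm38), which held 47313 of the 49568 symbols. A floor of 3 counts lay at 0.0922 to 0.118 CPM, here of the totals without TMM scaling, and covers counting error only. Same-genotype lungs differed by far more than sampling noise (chi-square per degree of freedom 53.7 to 140). On counts simulated for this comparison, with 200 changed genes among 18950, edgeR recovered 143 and made 19 false calls. Of the 143, 51 were given an absolute log2 fold change of 1 and 92 one of 2, and no smaller change was simulated. Far fewer genes were changed than were called in the lungs, so these rates do not carry over to the calls here.

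Members and lists were chosen with earlier results of these data known. All 10 members are named, and from the lists of other genes those called with an absolute log2 fold change of 1 or more and no overlap of the groups. Outside this rule, and after their values were seen, Ltbp1, Ltbp3, Efemp2, Bmp1, Loxl4, Htra2, Gm9913, Gm21451, Gm45509, Gm27177, Gm42418, Adamtsl2 and Comp were named. The 15 alternatives for each member comprised DESeq2 (version 1.42.0), limma-voom (version 3.58.1), scaling by the size factors of DESeq2 or by totals alone, omission of the filter, a filter of 10 counts in each lung, robust dispersions, a block for the replicate number, 6 fits with a lung left out and a fit without both libraries that stood apart, which was added after the data were seen. Counts of calls were also taken at an absolute log2 fold change of 1 or more.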

Additional observations from a re-analysis of the deposited data

How the results depend on the processing

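Of 150 refits of the 10 genes' log2 fold changes, 126 kept direction and side of the cutoff, 12 lost a call (11 of them Loxl3), 7 gained one and 5 changed direction. Fbln2 changed direction without the TNF+ lung of replicate 1 (0.0084), without the TNF- lung of replicate 1 (0.028) and without both (0.26), and Lox without the TNF+ lung of replicate 1 (-0.015) and without the TNF- lung of replicate 3 (-0.22). With each lung left out, Fbln2 lay between -0.48 and 0.028 and Lox between -0.22 and 0.41, and neither was called in any fit. A minimum absolute log2 fold change of 1 left, by construction, 4320 of the 9096 genes called, 3 of the 5 elastic fiber and lysyl oxidase genes, 11 of the 18 other elastic fiber genes and 8 of the 13 elastases and inhibitors. Leaving out each lung gave 3 to 6 of the 10 genes and 7347 to 9164 of all genes, with 3 and 7449 without the TNF- lung of replicate 2. A replicate block left 7680 genes, 4 of the 10, 17 other elastic fiber genes and 11 elastases and inhibitors, and Loxl3 was the member whose call changed. Same-numbered mice are different animals, and their deviations from the group means did not go together (correlations across genes of -0.15, -0.0043 and -0.24). Under the 63 alternatives tried, the group differences of the 9 shares and ratios moved by less than the SD pooled over TNF+ and TNF- lungs, but some moved by more than the smaller of the SDs of the groups. The difference in the Fbln1 share was -31.0 percentage points and -26.6 without scaling to gene length, that in the Fbln2 share was 15.7 and 20.1 without the TNF+ lung of replicate 1, and that in the Eln to Fbn1 ratio was -0.16 and 0.013 without the TNF- lung of replicate 3. Shares, level order, likeness to Eln and marker lists were not recomputed without both libraries that stood apart.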
